A study of Mus musculus with 6 samples.

Results

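The genes described here are the ligands and receptors of the CXCR3 and CXCR6 chemokine axes together with Ccl5, taken from the count table by symbol. The list names 7 genes, Cxcl9, Cxcl10, Cxcl11, Cxcr3, Cxcl16, Cxcr6 and Ccl5, and 6 of them were found among the 23122 genes with counts. All 6 passed the filter on low counts, which left 14189 genes in the table to be tested. Cxcl11 was not analysed here. RefSeq annotates it on the C57BL/6J reference as a transcribed pseudogene on chromosome 5 (92359544 to 92363296 in GRCm38). The mice of this study were of another strain, BALB/c, in which the state of this gene was not examined.

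The samples were 6 subcutaneous tumors of CT26, a mouse colorectal carcinoma line, grown in female BALB/c mice of 6 to 8 weeks and measured by bulk RNA sequencing. Mice entered treatment once tumors measured 100 to 200 mm3, and 3 tumors came from animals given TP-18, which per the series title blocks EP2 and EP4, a pair of prostaglandin E2 receptors, dosed orally every day at 50 mg/kg over 3 weeks. The other 3 came from animals given vehicle. The labels do not say that each tumor came from its own mouse, so p-values measure only the spread between these samples, and all of them rest on a single cell line.

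CXCL9, CXCL10 and CXCL11 are secreted chemokines whose genes are switched on by interferon gamma, and all of them signal through CXCR3, a G protein-coupled receptor of activated T cells and NK cells. CXCL16 is made as a membrane-anchored protein, can be shed from the cell surface, and binds CXCR6, a receptor of effector and tissue-resident T cells. CCL5 is made by activated T and NK cells as well as by other cells, and draws leukocytes through receptors that include CCR1 and CCR3. In tumors these chemokines are known for the recruitment and positioning of cytotoxic lymphocytes.

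Cxcl9 and Cxcl10 lie close to each other on the minus strand of chromosome 5, and both rose in TP-18 tumors, so the 250 bases before each start site are shown (RefSeq, GRCm38.p6, 5′ to 3′ on the gene's strand). Capitals mark matches to the core of the interferon-stimulated response element (ISRE: GAAA, any 2 bases, GAAA) or to a core of the NF-kB site (GGGA, any base, TT, any base, CC), both searched on both strands. The interferon gamma activation site (GAS: TTC, any 3 bases, GAA), whose letters read the same on both strands, was searched too.
Cxcl9, chr5:92328080-92328329: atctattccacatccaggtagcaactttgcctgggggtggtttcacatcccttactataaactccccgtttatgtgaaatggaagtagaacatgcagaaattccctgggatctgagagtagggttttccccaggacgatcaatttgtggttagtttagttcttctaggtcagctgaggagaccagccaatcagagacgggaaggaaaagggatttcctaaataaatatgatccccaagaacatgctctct
Cxcl10, chr5:92348890-92349139: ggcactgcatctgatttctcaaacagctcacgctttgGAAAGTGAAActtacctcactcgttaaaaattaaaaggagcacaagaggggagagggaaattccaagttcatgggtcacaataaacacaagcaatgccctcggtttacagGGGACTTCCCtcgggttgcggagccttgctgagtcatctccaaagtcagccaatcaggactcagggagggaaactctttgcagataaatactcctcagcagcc
The Cxcl10 window held the ISRE core 213 to 204 bases before the start and the NF-kB core 103 to 94 bases before it, with no overlap between the matches. The Cxcl9 window held none of the motifs in these letters, and neither did those of Cxcr3 and Cxcr6, the other members with a promoter in the table. Of all 32851 promoter windows of this length, 2.98% held the ISRE core, 0.98% the NF-kB core and 7.02% the GAS core. A match is a description of the letters and not of binding.

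The comparison of TP-18 with vehicle tumors asks which transcripts differ after 3 weeks of treatment. Of the 6 members measured, 5 rose in TP-18 tumors by edgeR's quasi-likelihood test at a Benjamini-Hochberg adjusted p under 0.05, beside 7.09% of all tested genes called higher, 5.26% called lower and 12.4% called in either direction. In all 6 members every TP-18 library lay above every vehicle library, as was the case in 18% of tested genes. The members had a median log2 change of 2.64, against -0.0084 over all tested genes. Levels are given as counts per library size (CPM), scaled by the trimmed mean of M-values (TMM). In bulk tumor RNA, more cells of a type and more RNA per cell cannot be told apart.

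**Figure D1:**
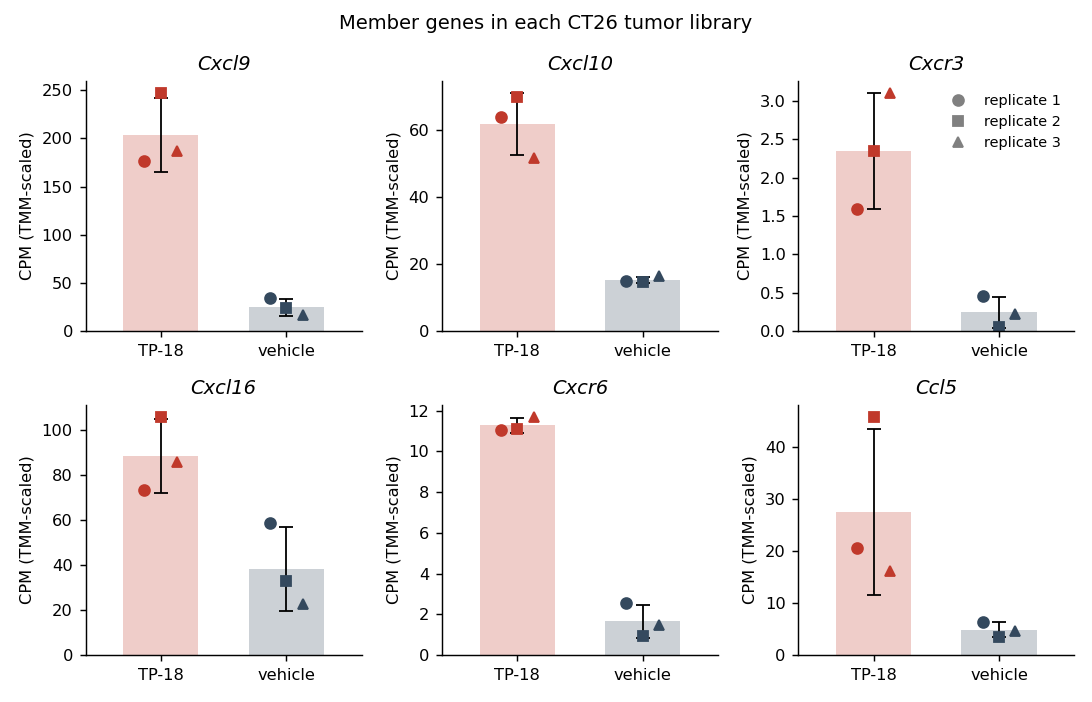
CPM of the 6 members in each library, with TP-18 at the left and vehicle at the right of each panel. Bars are group means, whiskers ± SD over 3 libraries, and points single libraries; the TP-18 points lie above the vehicle points in every panel, closest together for Cxcl16.

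Cxcl9 (Entrez 17329, chromosome 5, 92321331 to 92328079), a CXCR3 ligand, measured 176, 247 and 187 CPM in TP-18 replicates 1 to 3, against 34.3, 23.8 and 16.8 CPM in vehicle replicates 1 to 3. The lowest TP-18 library was 5.14-fold above the highest vehicle library. The log2 change was 3.03 ± 0.29 (SE), an 8.14-fold higher level, with an adjusted p of 0.00412. Of all tested genes, 65 had a log2 change at least that large, Cxcl9 included.

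Cxcl10 (Entrez 15945, chromosome 5, 92346638 to 92348889), a ligand of the same receptor, measured 63.8, 69.7 and 51.6 CPM in TP-18 tumors, against 14.9, 14.6 and 16.4 CPM in vehicle tumors. It was the steadiest member in vehicle tumors, where its highest library was 1.12-fold its lowest. The log2 change was 2.01 ± 0.13 (SE) with an adjusted p of 0.00082.

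Both ligands kept their call in all 16 alternative fits. The adjusted p with 1 library left out was at most 0.0284 for Cxcl9 and 0.00825 for Cxcl10. Within a library, the log2 ratio of Cxcl9 to Cxcl10 was 1.47, 1.83 and 1.85 in TP-18 tumors, against 1.20, 0.70 and 0.03 in vehicle tumors. The groups did not overlap, and the ratio was larger in TP-18 tumors by a mean of 1.07 on the log2 scale. The exact two-sided permutation p was 0.1, the smallest that 3 against 3 allows.

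Cxcr3 (Entrez 12766, chromosome X, 101731535 to 101734147), the receptor of both ligands, was the scarcest member in reads and per length. It had 59, 86 and 121 reads in TP-18 tumors, against 16, 2 and 7 reads in vehicle tumors. The exact Poisson 95% interval of the 2 reads in vehicle replicate 2 runs from 0.242 to 7.22 reads, and covers counting error only.

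In CPM, Cxcr3 averaged 2.35 ± 0.76 in TP-18 tumors and 0.245 ± 0.198 in vehicle tumors (SD, n = 3 each). The log2 change was 3.23 ± 0.60 (SE) with an adjusted p of 0.0166 by edgeR. This call was lost without TP-18 replicate 3, the library with the most Cxcr3 (log2 change 2.98, adjusted p = 0.067), and the log2 change was 4.06 without vehicle replicate 1.

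The size of the change was compared between the ligand Cxcl9 and its receptor. With a pseudocount of 0.1 CPM, the log2 ratio of Cxcl9 to Cxcr3 was 6.71, 6.66 and 5.87 in TP-18 tumors, against 5.96, 7.21 and 5.73 in vehicle tumors. These ranges overlap, and the difference of 0.11 had an exact permutation p of 0.9 and changed sign without TP-18 replicate 1 (-0.04), TP-18 replicate 2 (-0.0083), vehicle replicate 1 (-0.06) or vehicle replicate 3 (-0.17). The difference was 1.61 with a pseudocount of 1 CPM (exact permutation p = 0.1) and 0.40 on deposited FPKM (exact permutation p = 0.5), so these data do not show whether ligand and receptor changed alike.

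Cxcr6 (Entrez 80901, chromosome 9, 123806477 to 123811754) measured 11.0, 11.1 and 11.7 CPM in TP-18 tumors, against 2.53, 0.949 and 1.47 CPM in vehicle tumors. Its TP-18 libraries were the closest together of any member, the highest being 1.06-fold the lowest. The log2 change was 2.77 ± 0.33 (SE) with an adjusted p of 0.00381 by edgeR, and the call held in all 16 alternative fits, with an adjusted p of at most 0.017 when 1 library was left out.

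Cxcl16 (Entrez 66102, chromosome 11, 70454389 to 70459984), the ligand of CXCR6, was the member whose groups lay closest. It measured 73.1, 106 and 85.8 CPM in TP-18 tumors, against 58.7, 32.8 and 22.6 CPM in vehicle tumors. Vehicle replicate 1 came near the TP-18 range, the lowest TP-18 library being 1.25-fold above it.

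The log2 change of Cxcl16 was 1.21 ± 0.37 (SE), and its adjusted p of 0.0911 by edgeR missed the threshold. Without vehicle replicate 1 it was 1.69 with an adjusted p of 0.00989, and DESeq2, which called 19.1% of tested genes, gave an adjusted p of 0.0317 with all libraries. Exons of Cxcl16 share 552 bases with exons of Zmynd15, which lies on the opposite strand, and the strandedness of the libraries is not given in the sources used here. Zmynd15 had 311, 321 and 249 reads in TP-18 tumors, against 220, 99 and 66 in vehicle tumors, and reads of the shared bases cannot be told apart without strand.

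The log2 ratio of Cxcl16 to Cxcr6 was 2.72, 3.24 and 2.86 in TP-18 tumors, against 4.48, 4.97 and 3.86 in vehicle tumors. All TP-18 tumors had less Cxcl16 per Cxcr6 than all vehicle tumors, with a difference of -1.50 and an exact permutation p of 0.1, again the smallest the design allows.

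Ccl5 (Entrez 20304, chromosome 11, 83525778 to 83530518) measured 20.6, 45.8 and 16.1 CPM in TP-18 tumors, against 6.37, 3.52 and 4.59 CPM in vehicle tumors. TP-18 replicate 2 stood above the other two, and the highest TP-18 library was 2.84-fold the lowest, the widest spread of any member among TP-18 tumors. The log2 change was 2.51 ± 0.47 (SE) with an adjusted p of 0.0260 by edgeR.

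The call on Ccl5 depended on single libraries. Its adjusted p was 0.0952 without vehicle replicate 2, 0.0597 without vehicle replicate 3 and 0.0548 without TP-18 replicate 1, and limma-voom gave 0.0617 with all 6 libraries. Without TP-18 replicate 2, where Ccl5 was highest, the log2 change was 1.92 and the adjusted p 0.0148.

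**Figure D2:**
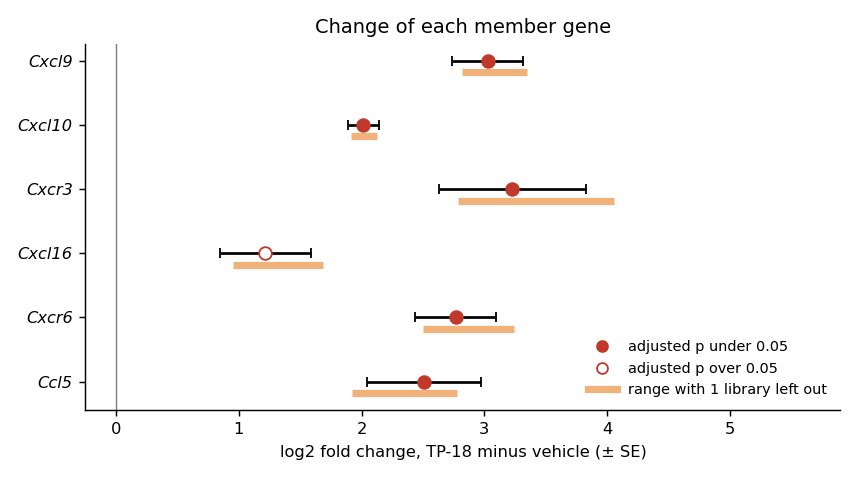
Log2 fold change of each member, TP-18 minus vehicle, on the horizontal axis, with whiskers of 1 SE. Filled points passed the adjusted p threshold and the orange bars span the fits with 1 library left out; Cxcl16 alone is open, and no bar reaches 0.

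**Figure D3:**
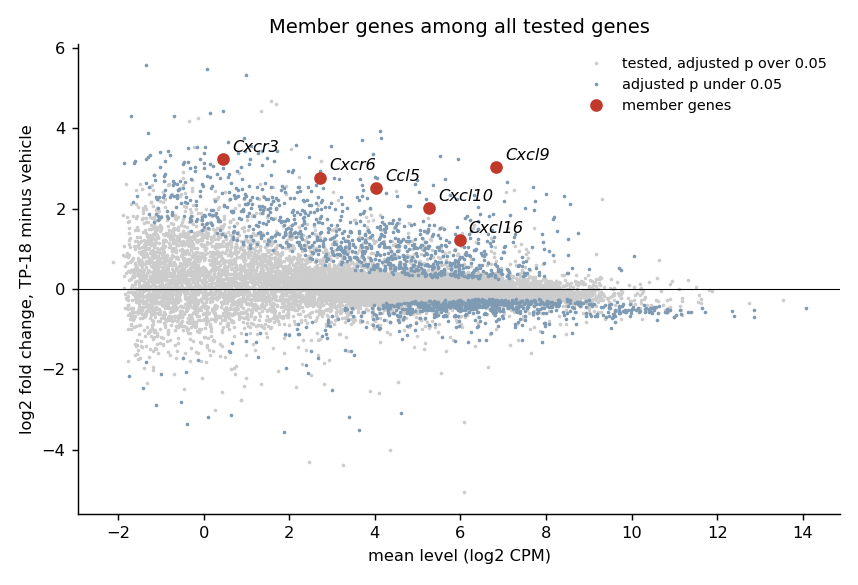
Log2 fold change (TP-18 minus vehicle) against mean log2 CPM for the 14189 tested genes, with the 6 members in red. Cxcr3 sits at the low end of expression and Cxcl9 at the high end, both with a log2 change above 3.

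Levels of different genes were compared per gene length, in the deposited FPKM. In TP-18 tumors the ligands Cxcl9 (mean 73.5 FPKM), Cxcl16 (62.1), Cxcl10 (58.8) and Ccl5 (54.0) followed each other with overlapping ranges, so their order is not resolved. The receptors lay far below, Cxcr6 at 6.27 ± 0.30 FPKM and Cxcr3 at 1.54 ± 0.51 FPKM (SD, n = 3), and neither range overlapped that of its neighbor in the order. In vehicle tumors Cxcl16 came first at 24.6 ± 13.2 FPKM and Cxcl10 second at 13.2 ± 0.68 FPKM, with ranges that did not overlap. Ccl5 at 8.70 and Cxcl9 at 8.27 FPKM overlapped each other in vehicle tumors, followed by Cxcr6 at 0.840 and Cxcr3 at 0.148 FPKM. By mean FPKM alone, Cxcl9 stood first among the members in TP-18 tumors, and at rank 4 in vehicle tumors. Neither rank is resolved, as its range overlapped that of Cxcl16 in TP-18 tumors and of Ccl5 in vehicle tumors.

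**Figure D4:**
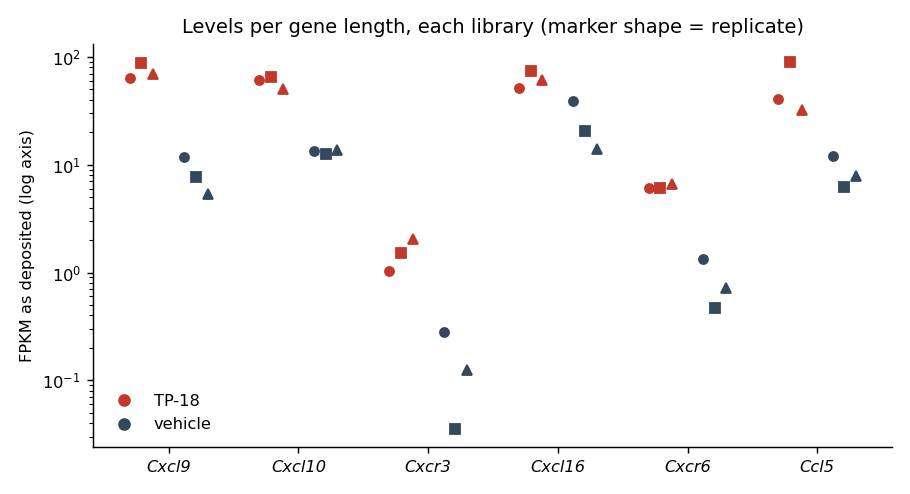
Deposited FPKM of each member on a log axis, 1 point per library, TP-18 left of vehicle. The ligands of TP-18 tumors lie between 32.5 and 89.0 FPKM, while Cxcr3 stays below 2.1 FPKM in every library.

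The libraries also differed within each group. In TP-18 tumors, replicate 2 had the highest level of Cxcl9, Cxcl10, Cxcl16 and Ccl5, and replicate 3 that of both receptors. In vehicle tumors, replicate 1 had the highest level of 5 of the 6 members, the exception being Cxcl10. The summed T cell markers, from 14 genes, were also highest in vehicle replicate 1 among vehicle tumors, at 36.6 CPM against 18.4 CPM in the lowest vehicle tumor.

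Members were then set beside markers of the cells that carry or make them. All 14 tested T cell markers rose, with summed levels of 103 to 114 CPM in TP-18 tumors and 18.4 to 36.6 CPM in vehicle tumors, and no marker was at 0 throughout a group. Cd8a, the coreceptor of cytotoxic T cells, measured 22.4, 22.4 and 21.3 CPM in TP-18 tumors, against 7.57, 2.11 and 2.28 CPM in vehicle tumors. Cd3e, a chain of the T cell receptor complex, had a log2 change of 2.10 ± 0.39, and Cd4, the helper coreceptor, of 1.99 ± 0.50. All 7 NK cell markers rose as well, Ncr1, the receptor NKp46, by 1.91 ± 0.18 (SE).

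Relative to the summed T cell markers, Cxcr6 was higher in all TP-18 tumors with no overlap, with log2 ratios of -3.21, -3.34 and -3.14 in TP-18 tumors, against -3.80, -4.13 and -3.59 in vehicle tumors. The difference was 0.61 (exact permutation p = 0.1), and 0.06 with a pseudocount of 1 CPM in place of 0.1 (exact permutation p = 0.7). For Cxcr3 the same difference was 0.76 (exact permutation p = 0.2) with overlapping groups, and it turned to -0.78 with a pseudocount of 1 CPM. For Ccl5 it was 0.18 (exact permutation p = 0.8), against -0.014 with that pseudocount. Relative to Cd3e alone, the difference was 0.57 for Cxcr6 (exact permutation p = 0.3), 0.72 for Cxcr3 (p = 0.3) and 0.15 for Ccl5 (p = 0.6). Relative to T cell and NK cell markers together, it was 0.91 for Cxcr6 (exact permutation p = 0.1), 1.06 for Cxcr3 (p = 0.2) and 0.48 for Ccl5 (p = 0.4). How far the number of T cells accounts for the change of these members was not tested.

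Of 10 macrophage and monocyte markers 3 rose, beside 7.09% of all tested genes, with a median log2 change of 0.69. Their summed levels were 1925 to 2211 CPM in TP-18 tumors and 1017 to 1512 CPM in vehicle tumors. Adgre1, which encodes F4/80, rose by 1.36 ± 0.13. Mrc1 (-0.64 ± 0.37) and Cd14 (-0.33 ± 0.17) went the other way and were not called. Relative to the summed macrophage markers, a comparison added after the values were seen, Cxcl9 was higher by 2.40 and Cxcl10 by 1.33 on the log2 scale, each with no overlap between groups (exact permutation p = 0.1). Cxcl16 was higher by 0.64 on this scale and its groups overlapped (exact permutation p = 0.2). All 6 markers of cross-presenting dendritic cells rose, among them Xcr1, the receptor for XCL1, with a log2 change of 3.44 ± 0.55. Over the 9 ratios compared in all, the smallest Benjamini-Hochberg adjusted value of the exact permutation p was 0.18.

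**Figure D5:**
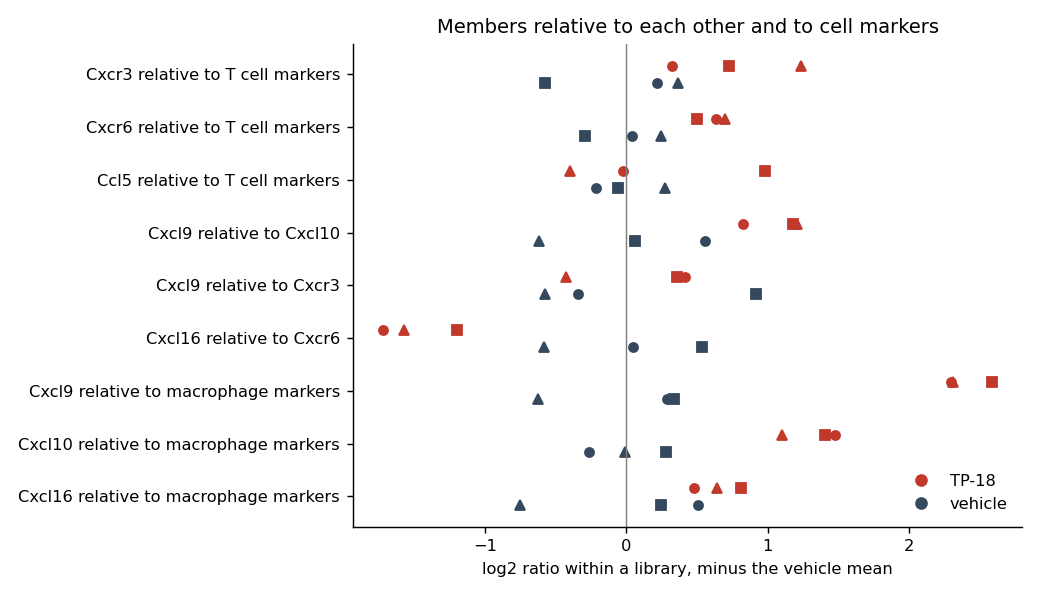
Log2 ratio of a member to another member or to summed markers within each library, shifted so that the vehicle mean is 0; TP-18 points are drawn above vehicle points in each row. Cxcl9 relative to macrophage markers lies farthest to the right of the vehicle points, and Cxcl16 relative to Cxcr6 is the ratio that lies to their left.

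Markers of some cells and tissues other than immune cells also moved with the groups. Others did not, as none of 6 endothelial and none of 6 fibroblast markers was called, and their summed levels overlapped between groups. Skeletal muscle markers summed to 57.6 to 121 CPM in TP-18 tumors and 10.7 to 33.5 CPM in vehicle tumors, with 5 of 10 called higher. Red blood cell markers summed to 14.8 to 33.9 CPM in TP-18 tumors and 66.3 to 395 CPM in vehicle tumors. Of these, 4 of 5 tested were called lower. Over all tested genes, 7.09% were called higher and 5.26% lower. Of 5 epithelial markers 3 were tested, and only Krt20 was called, falling by 0.60 (SE 0.12). Krt18 stood at a log2 change of -0.86 ± 0.26 (adjusted p = 0.0649 by edgeR). Cdh1 went the other way, at 1.15 ± 0.34 (adjusted p = 0.0647 by edgeR). Epcam and Krt8 had at most 24 reads in any library and were not tested. The part of these shifts in the results was not tested. Total counts ran from 34813482 to 36489081 per library, so depth differed little.

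Interferon gamma and the factors that act after it lead to the CXCR3 ligands, and T-bet drives the receptor. In a list of 12 genes of that route, 7 rose, none fell and 5 did not pass, with a median log2 change of 0.79. Over all tested genes, 7.09% were called higher. Ifng measured 3.60, 4.54 and 2.23 CPM in TP-18 tumors, against 0.455, 0.122 and 0.375 CPM in vehicle tumors. Irf1, a transcription factor induced by interferon gamma, rose by 1.30 ± 0.17. Tbx21, which encodes T-bet, rose by 2.54 ± 0.37, and its relative Eomes by 1.51 ± 0.23. Irf1 and Ifng were, like Cxcl10 and Ccl5, highest in TP-18 replicate 2 and lowest in TP-18 replicate 3 among TP-18 tumors. Cxcl9 was lowest in TP-18 replicate 1, and Tbx21 and Eomes were highest there. Socs1, an inhibitor of interferon signalling, rose by 1.08 ± 0.19 and the receptor chain Ifngr1 by 0.49 ± 0.11.

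Other receptors and scavengers of these ligands were looked at next. Ccr1, a receptor of CCL5, measured 60.3, 67.0 and 68.7 CPM in TP-18 tumors, against 57.7, 43.4 and 78.1 CPM in vehicle tumors, with groups that overlap. Ackr3, a scavenger that binds CXCL11 and CXCL12, stood at -0.85 ± 0.25 on the log2 scale and missed the threshold (adjusted p = 0.0776). Neither gene was called, and Ccr3 and Gpr182 were below the filter, while Ackr1 was not analysed here.

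Of the proteases that cut these ligands, Adam17, a sheddase of the cell surface, rose by 0.56 ± 0.08. Adam10, which sheds CXCL16, stood at a log2 change of 0.21 ± 0.08 (adjusted p = 0.118). Dpp4, which trims CXCL10 at its amino end, measured 2.47, 4.24 and 3.10 CPM in TP-18 tumors, against 0.654, 0.918 and 12.0 CPM in vehicle tumors, where replicate 3 stood far above the rest. Among 12 genes of chemokine receptor signalling, 5 rose, beside 7.09% of all tested genes, and none fell, with a median log2 change of 0.39. They were Dock2, an activator of Rac in migrating leukocytes (1.48 ± 0.13), its target Rac2 (1.22 ± 0.13), the lipid kinase subunit Pik3cg (1.09 ± 0.13), the actin regulator Coro1a (0.83 ± 0.12) and Arrb2, an arrestin of receptor desensitisation (0.60 ± 0.15).

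Chemokines of other axes were mostly not called. Of 26 tested ligands 3 rose and none fell, with a median log2 change of 0.37. Over all tested genes, 7.09% were called higher and 5.26% lower. Xcl1, the ligand of XCR1, rose by 3.37 ± 0.33. Ccl1, the ligand of CCR8, had 4.31 ± 0.72 on few reads, at 1.21, 1.15 and 0.794 CPM in TP-18 tumors, against 0.114, 0 and 0.0312 CPM in vehicle tumors. Ccl22, a ligand of CCR4, rose by 1.41 ± 0.27. Of 9 tested receptors of other axes 2 rose, Xcr1 and Ccr9, while Ccr7, a lymph node homing receptor, had an adjusted p of 0.0511 and Ccr2, a monocyte receptor, of 0.0528 by edgeR.

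Genes most like each member over the 6 libraries were ranked by the root mean square difference of log2 CPM after centring each gene on its own mean, among 12563 genes; this is a description in which all genes share the same libraries and the same group difference. Cyria, a regulator of Rac1, came closest to Cxcl9 (0.122), with 9.62, 13.5 and 11.7 CPM in TP-18 tumors, against 1.99, 1.38 and 1.12 CPM in vehicle tumors. Crtam, a receptor of activated lymphocytes, and Serpina3g, a protease inhibitor, followed at 0.200 and 0.216. Cyfip2 (0.0813), Irgm2, an interferon-inducible GTPase (0.0836), and Cst7, the protease inhibitor cystatin F (0.0838), came closest to Cxcl10. Cxcr3 was nearest to Ciita, the master regulator of MHC class II genes (0.350), and to the class II gene H2-Eb1 (0.377), and then to Cxcr6 (0.384).

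Cxcr6 was nearest to Tnfsf10, the death ligand TRAIL (0.237), H2-DMb2 (0.257) and Slamf8 (0.260). Ccl5 was nearest to Gbp8, a guanylate-binding protein (0.252), AW112010 (0.266) and Il18bp, the soluble inhibitor of interleukin-18 (0.276). Cxcl16 was nearest to Plcb2 (0.136), Neurl3 (0.141) and Rnf157 (0.152). Cxcl9 and Cxcl10 differed from each other by 0.646, more than Cxcl9 differed from Cxcr6 (0.386).

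Annotated neighbors were compared with the members. Sdad1, the nearest gene below Cxcl9, had a log2 change of -0.06 ± 0.08 (adjusted p = 0.641). Art3, which spans Cxcl10 on the opposite strand and shares 133 exonic bases with it, had 44, 69 and 79 reads in TP-18 tumors, against 27, 39 and 5 in vehicle tumors (adjusted p = 0.210), far fewer than Cxcl10, which had at least 477 in every library. Fyco1, in whose span Cxcr6 lies on the opposite strand with no shared exonic bases, had a log2 change of 0.17 ± 0.10 (adjusted p = 0.311).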

How the data were processed

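RNA of 6 tumors, 3 TP-18 and 3 vehicle by the treatment label, was counted per gene. Fastp, HISAT2, HTSeq and the build GRCm38 are named in the submitters' processing notes; for their versions, for strandedness and for reads with several matches, nothing is stated by the sources used here. The deposited counts are whole numbers per gene with no normalization. The deposited FPKM values were made by the authors from those counts, a library total and a gene length. Total counts ran from 34813482 to 36489081 per library.

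Genes were kept by filterByExpr (minimum count 10, minimum total 15), scaled by TMM and tested with edgeR 4.0.16 in R 4.3.3 (robust quasi-likelihood F test, two-sided, Benjamini-Hochberg over 14189 genes, called at an adjusted p under 0.05). SEs were derived from the F statistic; fold changes (log2) take TP-18 over vehicle at a prior count of 0.125. The procedure was tested on simulated data. Log2 ratios within a library used CPM + 0.1 and exact two-sided permutation tests in scipy 1.17.1.

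Alternatives tried were scaling by RLE or by the upper quartile, no filter or 1 CPM in 3 libraries, DESeq2 1.42.0, limma-voom (limma 3.58.1), limma on log2 of FPKM + 1 or + 0.1 (FPKM of at least 0.1 in 3 libraries, or no filter), the replicate number as a block, and leaving out each library. Members and lists were chosen with earlier results of these data known. Named were the members, up to 4 genes of each list by smallest p and 13 fixed genes, the 3 genes most like each member (mean log2 CPM of at least 0, prior count 2), and annotated neighbors; a few further genes were added after their values were seen. The ratios to macrophage markers were also added then. Some genes of the lists are not reported here.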

Additional observations from a re-analysis of the deposited data

How the results depend on the processing

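The direction of all 6 members held in each of 16 alternative fits. Cxcl9, Cxcl10 and Cxcr6 also kept their call in all of them. Ccl5 lost it with no filter on low counts (log2 change 2.49, adjusted p = 0.0771), with limma-voom (2.38, 0.0617) and with the replicate number as a block (2.38, 0.0774); the cause was not tested. Cxcl16 passed with DESeq2 (1.22, adjusted p = 0.0317). With 1 library left out, each fit also holds fewer samples, and the log2 changes ran from 2.82 to 3.34 for Cxcl9, 1.91 to 2.13 for Cxcl10, 2.78 to 4.06 for Cxcr3, 0.96 to 1.69 for Cxcl16, 2.50 to 3.24 for Cxcr6 and 1.92 to 2.78 for Ccl5. On log2(FPKM + 1) the changes of the low receptors were smaller by construction, 1.13 for Cxcr3 and 2.01 for Cxcr6.

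Of all tested genes 1753 were called (1006 higher, 747 lower), against 2704 by DESeq2, 740 on FPKM with no filter (662 higher, 78 lower), and 778 with the block (547 higher, 231 lower); without 1 library the count ran from 499 to 2239. On filtered FPKM with pseudocount 1, 1382 were higher and 238 lower, and with pseudocount 0.1, where the median gene moved to 0.13, 1401 and 250. Equal replicate numbers mark no stated pairing, and deviations of same-numbered tumors from their group means correlated at 0.242, -0.0834 and -0.0364, so the block is no paired test. With 3 tumors a group the smallest exact permutation p of a ratio is 0.1.

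With a pseudocount of 1 CPM the difference in Cxcr3 relative to T cell markers turned to -0.78, as Cxcr3 lies under 1 CPM in vehicle tumors, and that in Ccl5 to -0.014. The same pseudocount gave 0.06 for Cxcr6 relative to T cell markers and 1.61 for Cxcl9 relative to Cxcr3. With 1 library left out, the differences ran from 0.47 to 0.98 for Cxcr3 and 0.47 to 0.74 for Cxcr6 relative to T cell markers, -0.21 to 0.47 for Ccl5, 0.76 to 1.35 for Cxcl9 relative to Cxcl10, -0.17 to 0.57 for Cxcl9 relative to Cxcr3 and -1.79 to -1.23 for Cxcl16 relative to Cxcr6.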

Other observations

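Ccr9, the receptor of CCL25 and the nearest gene below Cxcr6 on chromosome 9 at 23020 bases, was higher too. It had 22, 61 and 94 reads in TP-18 tumors, against 3, 7 and 6 reads in vehicle tumors, a log2 change of 3.24 ± 0.63 (adjusted p = 0.0190 by edgeR). In CPM, its libraries and those of Cxcr3 and Cxcr6 fell in the same order among TP-18 tumors, lowest in replicate 1 and highest in replicate 3. Cxcr6 differed little between these libraries. Neutrophil markers, which carry other chemokine receptors such as CXCR2, were not called: Cxcr2 measured 1.64, 4.40 and 2.72 CPM in TP-18 tumors, against 0.825, 2.20 and 18.3 CPM in vehicle tumors, where replicate 3 stood apart.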
